A study of Mus musculus with 6 samples.

Results

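The enzyme genes of immune arginine, tryptophan and itaconate metabolism, 7 in all, were followed in whole-lung RNA. They were Arg1, Nos2, Ass1, Ido1, Wars (Wars1 in newer references), Kynu and Acod1, chosen by name as the mouse Ensembl genes of these enzymes. All 7 had a row among the 35275 gene rows of the deposited count tables, and all 7 passed the filter on low counts. The lungs came from Balb/c mice 7 days after an injection into the tail vein of 250000 4T1 cells, which are mammary tumour cells derived from a Balb/c mouse and able to form lung metastases. KO lungs (3 libraries) had received 4T1 cells without PD-L1, and WT lungs (3 libraries) had received unmodified 4T1 cells. Every lung carried injected tumour cells and was perfused with 20 mL of PBS, and no label gives the host mice an edited gene. The labels give neither the age of the mice nor whether the KO line is 1 clone.

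Arginine is the shared substrate of competing enzymes in myeloid cells. Nitric oxide synthase 2 turns it into nitric oxide and citrulline, arginase 1 splits it into ornithine and urea, and argininosuccinate synthase 1 starts the rebuilding of arginine from citrulline. Indoleamine 2,3-dioxygenase 1 opens the kynurenine pathway of tryptophan breakdown, kynureninase acts further down it, and tryptophanyl-tRNA synthetase loads the same amino acid onto its tRNA. Aconitate decarboxylase 1 makes itaconate from a citrate cycle intermediate in activated macrophages. Interferon gamma is a known inducer of Nos2, Ido1 and Wars, while Arg1 is known as a gene induced by interleukin 4 and interleukin 13 in mouse macrophages.

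Promoter sequence is given for both members with an entry in the RefSeq promoter table (GRCm38.p6), Ass1 and Acod1, together with Kmo, which encodes the enzyme just before kynureninase, and Cyp1a1, a target of the aryl hydrocarbon receptor that binds kynurenine pathway products. Each stretch is the 250 bases before the RefSeq start of the gene, 5′ to 3′ on its plus strand. Capitals mark matches on either strand to the motifs named after the sequences. The Ass1 stretch is chr2:31470020-31470269, that of Acod1 is chr14:103046762-103047011, that of Kmo is chr1:175631943-175632192 and that of Cyp1a1 is chr9:57697363-57697612. In the GENCODE M21 annotation these genes start further upstream, at 31470207, 103046977, 175620381 and 57687928 in the same order. The ends of the Ass1 and Acod1 stretches and the whole Kmo and Cyp1a1 stretches thus lie inside the GENCODE genes.
Ass1: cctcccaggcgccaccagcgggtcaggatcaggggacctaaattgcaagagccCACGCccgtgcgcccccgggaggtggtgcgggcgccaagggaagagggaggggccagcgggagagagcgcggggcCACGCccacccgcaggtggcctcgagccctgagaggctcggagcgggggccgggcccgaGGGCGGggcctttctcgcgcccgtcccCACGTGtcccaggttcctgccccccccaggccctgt
Acod1: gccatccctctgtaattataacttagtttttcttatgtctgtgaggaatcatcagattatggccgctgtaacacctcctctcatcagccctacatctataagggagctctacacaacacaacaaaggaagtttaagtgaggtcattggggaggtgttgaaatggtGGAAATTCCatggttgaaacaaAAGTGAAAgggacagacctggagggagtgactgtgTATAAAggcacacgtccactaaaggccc
Kmo: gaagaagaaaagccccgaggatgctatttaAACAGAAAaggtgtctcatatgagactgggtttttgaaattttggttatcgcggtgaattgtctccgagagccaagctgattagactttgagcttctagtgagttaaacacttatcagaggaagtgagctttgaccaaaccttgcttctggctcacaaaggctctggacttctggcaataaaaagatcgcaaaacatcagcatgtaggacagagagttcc
Cyp1a1: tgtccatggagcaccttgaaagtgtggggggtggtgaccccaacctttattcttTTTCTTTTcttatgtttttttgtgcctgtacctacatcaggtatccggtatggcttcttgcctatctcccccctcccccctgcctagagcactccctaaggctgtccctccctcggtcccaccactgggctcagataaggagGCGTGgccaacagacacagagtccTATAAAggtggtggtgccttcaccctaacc

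The Ass1 stretch held 75.6% G and C, with an E-box (CACGTG) that began 36 bases before the start, a GC box (GGGCGG) at 63 bases and the xenobiotic response core GCGTG at 122 and 197 bases. In the Acod1 stretch, with 44.4% G and C, there were a TATA box (TATAAA) at 28 bases, an interferon regulatory factor core (AANNGAAA) at 63 bases and the palindromic NF-kB sequence GGAAATTCC at 85 bases. The Kmo stretch held the interferon regulatory factor core at 220 bases. That of Cyp1a1 held a TATA box at 30 bases, GCGTG at 54 bases and the interferon regulatory factor core at 196 bases. None of these matches overlapped another, and the gamma-activated sequence TTCNNNGAA was not found in these 4 windows. Of 32851 promoter stretches of the same length in the table, 6.02% held the E-box, 32.7% the GC box, 28.2% GCGTG, 12.4% the TATA box, 21.3% the interferon regulatory factor core, 0.286% GGAAATTCC and 7.02% the gamma-activated sequence. A match is a description of the letters and not a measured binding site.

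Libraries held 14711459 to 16932114 counts. A count of 0 thus allows up to 0.177 to 0.204 CPM (at 3 counts over the unscaled total, covering counting error only). Apart from such bounds, CPM are counts divided by the library's TMM-scaled total and put on a common scale. Lung identity was checked on 8 lung genes, among them Sftpc, the surfactant protein C gene, which had 110016 to 139979 counts in KO libraries and 111141 to 139365 in WT libraries. Cd274, which encodes PD-L1, had 1514, 3013 and 4929 counts in KO libraries, against 910, 912 and 1132 in WT libraries, a log2 difference of 1.65 ± 0.42 (SE, edgeR adjusted p = 0.161). All KO libraries were above all WT libraries, a direction opposite to a loss of the gene. Host cells, which no label calls edited, can express Cd274 too, so its level in whole lung gives no check of the KO label, and KO and WT stand for the labels throughout. In RNA of the whole organ, fewer cells of a type and less RNA per cell cannot be told apart. Loss of PD-L1 in the tumour cells also cannot be told apart from tumour load or another difference between the injected lines.

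Ass1 rose in KO lungs, and it was the only one of the 7 genes past the threshold over all genes (edgeR quasi-likelihood test, adjusted p under 0.05). Over all 15191 tested genes, 1.12% were called higher and 0.336% lower. All 7 members had a positive log2 difference, as did 51.0% of all tested genes, with a median of 0.89 and a range from 0.30 (Arg1) to 2.54 (Ido1), against a median of 0.01 over all genes tested. For Ass1, Ido1, Wars and Kynu every KO library lay above every WT library, whereas Nos2, Arg1 and Acod1 overlapped between the groups. Over all tested genes, 10.3% had every KO library above every WT library and 9.4% every KO library below, which was the case for 0 members. At an unadjusted p under 0.05, 5 of the 7 members were higher, against 8.29% of all tested genes. Without KO replicate 1, 4 members were called (Nos2, Ass1, Ido1 and Wars), without WT replicate 3 Ass1 was, and without any 1 of the other 4 libraries 0 were.

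**Figure D1:**
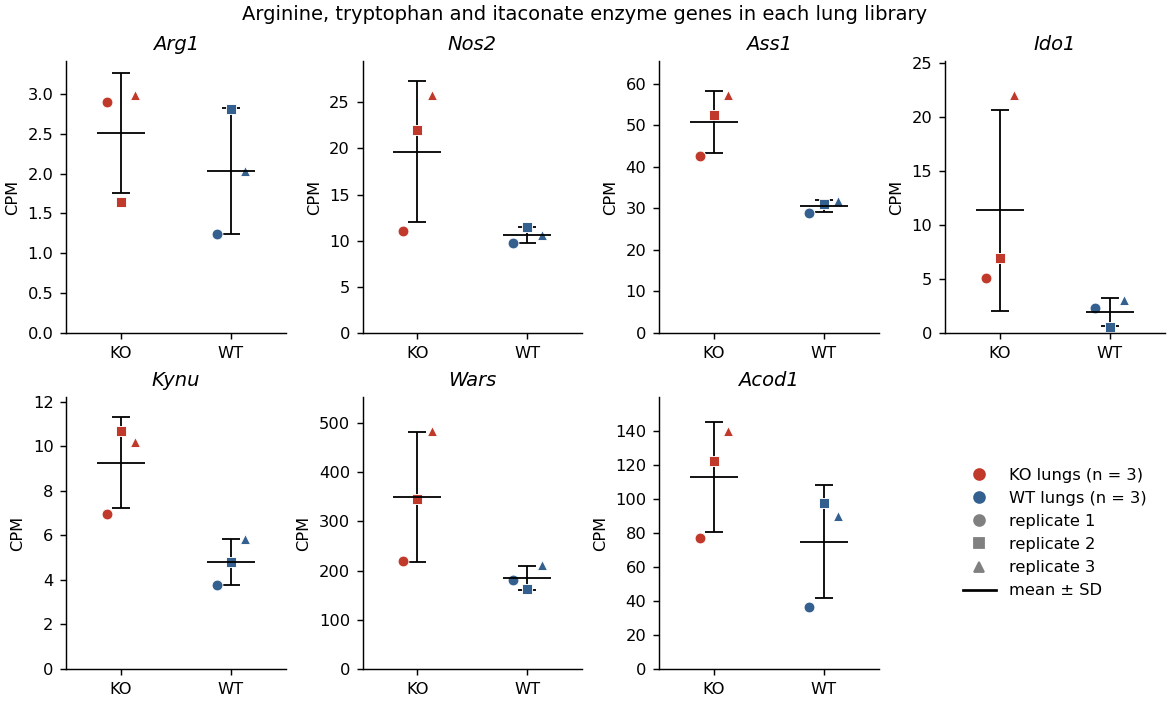
CPM of the 7 enzyme genes in each lung library, KO left and WT right, with replicates as symbols and the mean ± SD in black (each vertical axis starts at 0). Ass1, Ido1, Kynu and Wars show KO libraries wholly above WT libraries, and replicate 1 is the lowest KO library in every panel but that of Arg1.

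Ass1 (chromosome 2, 31470207 to 31520672, plus strand, GENCODE M21 on GRCm38) encodes the enzyme that joins citrulline and aspartate on the way back to arginine. Its level was 42.5, 52.5 and 57.3 CPM in KO lungs, against 28.9, 31.0 and 31.6 CPM in WT lungs. The WT libraries lay close together, and the lowest KO library was above the highest of them. The means were 50.7 ± 7.54 CPM in KO and 30.5 ± 1.45 CPM in WT lungs (SD, n = 3 each), a log2 fold change of 0.73 ± 0.14 (SE, edgeR adjusted p = 0.0266). The call was lost without KO replicate 2 (adjusted p = 0.155), KO replicate 3 (0.133), WT replicate 1 (0.129) or WT replicate 2 (0.115), at log2 fold changes of 0.63 to 0.74, and was kept without KO replicate 1 (0.00426) or WT replicate 3 (0.0466).

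Asl encodes the lyase that completes arginine from the product of Ass1. Its level was 18.3, 23.7 and 22.9 CPM in KO lungs, against 21.3, 17.8 and 19.2 CPM in WT lungs, with a log2 difference of 0.16 ± 0.18 that did not pass (edgeR adjusted p = 0.748). Per kb of exon, the log2 ratio of Ass1 to Asl within a library was 2.21, 2.15 and 2.32 in KO lungs, against 1.44, 1.80 and 1.72 in WT lungs. The ratio was higher in all 3 KO libraries than in any WT library, by 0.57 on the log2 scale (two-sided exact permutation test, p = 0.1, the smallest that 3 against 3 libraries can give).

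Nos2 (chromosome 11, 78920787 to 78960254, plus strand) encodes the inducible nitric oxide synthase. It stood at 11.1, 22.0 and 25.8 CPM in KO lungs, against 9.69, 11.5 and 10.6 CPM in WT lungs. KO replicate 1 lay within the range of the WT libraries, and the other two KO libraries lay above it. At a log2 difference of 0.89 ± 0.27 the gene did not pass (edgeR adjusted p = 0.133). Without KO replicate 1 the log2 fold change was 1.17 and passed (adjusted p = 0.00676). Without KO replicate 3 the log2 difference was 0.64 (adjusted p = 0.449), and leaving out any of the other 4 libraries gave no call either.

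Arg1 (chromosome 10, 24915221 to 24927484, minus strand) encodes arginase 1, the arginase of alternatively activated mouse macrophages. Only 25 to 49 counts in KO libraries and 18 to 48 counts in WT libraries fell on it, which is 2.90, 1.64 and 2.99 CPM in KO lungs, against 1.24, 2.82 and 2.03 CPM in WT lungs. The groups overlapped almost entirely. At a log2 difference of 0.30 ± 0.52 the gene was not called (edgeR adjusted p = 0.852), and the SE leaves room for a change of either sign at this depth. Arg2, the mitochondrial arginase, stood at 10.3, 22.6 and 18.3 CPM in KO lungs, against 11.6, 14.2 and 13.1 CPM in WT lungs (log2 difference 0.40 ± 0.26, edgeR adjusted p = 0.525).

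Since both enzymes consume arginine, the ratio of Nos2 to Arg1 was formed within each library per kb of exon. On the log2 scale it was 0.94, 2.74 and 2.11 in KO lungs, against 1.95, 1.03 and 1.38 in WT lungs. KO replicate 1 had the lowest ratio of all 6 libraries and KO replicate 2 the highest. The difference of 0.47 between the group means was smaller than the SD of the KO libraries, 0.91 (two-sided exact permutation test, p = 0.5). It was 0.07 without KO replicate 2 and 0.97 without KO replicate 1.

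**Figure D2:**
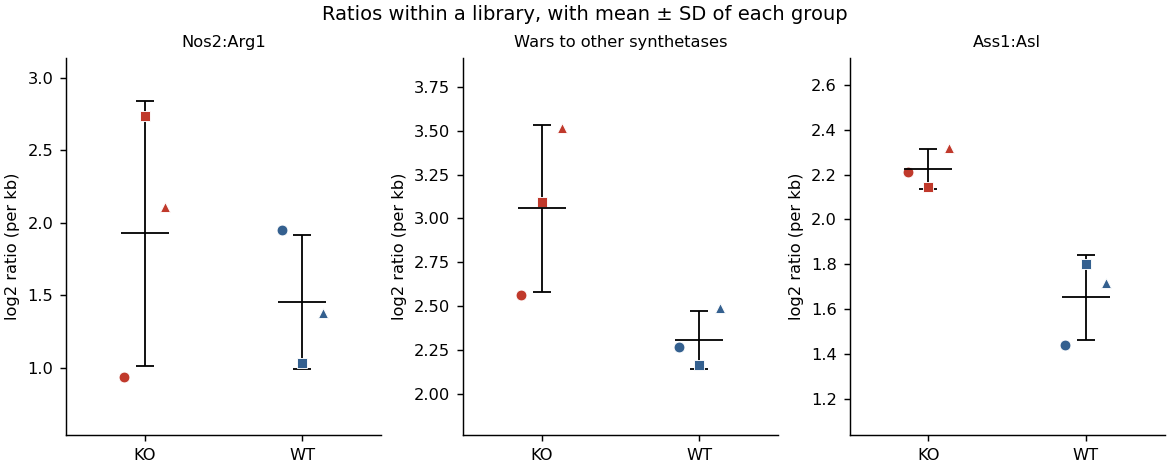
Log2 ratios formed within each library from counts per kb of exon for Nos2 to Arg1, Wars to the mean of 19 other cytosolic synthetases, and Ass1 to Asl, with KO left of WT and the mean ± SD in black. The Ass1 to Asl and Wars ratios of the KO libraries lie above all WT libraries, and the Nos2 to Arg1 ratios overlap.

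Among 31 other genes of arginine, polyamine and nitric oxide metabolism, 25 were tested, and by edgeR's quasi-likelihood test none was called in either direction. By DESeq2 and by limma-voom, 1 and 0 of them were called, against 585 and 208 of all genes. At an unadjusted p under 0.05, 3 were higher and 0 lower, where 8.29% of all tested genes were higher. The median log2 difference of the 25 was 0.15. Gatm, which makes the creatine precursor from arginine, stood at 25.0, 40.5 and 47.9 CPM in KO lungs, against 21.5, 15.1 and 23.6 CPM in WT lungs (log2 difference 0.91 ± 0.23, edgeR adjusted p = 0.0693). Gch1, which starts the synthesis of the tetrahydrobiopterin cofactor of nitric oxide synthases, stood at 35.5, 40.7 and 37.4 CPM in KO lungs, against 23.9, 29.2 and 29.2 CPM in WT lungs (0.46 ± 0.15, adjusted p = 0.147). In both, all KO libraries were above all WT libraries, as in 3 of the 25 tested genes of the list and 10.3% of all tested genes. Odc1, the first enzyme of polyamine synthesis, overlapped between the groups, at 135 ± 18.9 CPM in KO and 111 ± 10.01 CPM in WT lungs (0.28 ± 0.12, adjusted p = 0.306). The arginine transporter Slc7a2 averaged 106 ± 24.5 CPM in KO and 81.6 ± 25.8 CPM in WT lungs. The endothelial synthase Nos3 averaged 10.3 ± 3.52 CPM in KO and 11.7 ± 0.974 CPM in WT lungs (SD, n = 3 each), and neither passed, at log2 differences of 0.38 ± 0.21 and −0.18 ± 0.27.

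Ido1 (chromosome 8, 24584136 to 24597009, minus strand), the first and rate-limiting enzyme of the kynurenine pathway outside the liver, had the widest log2 difference of the members and also the widest spread. It stood at 5.08, 6.95 and 22.0 CPM in KO lungs, from 79, 106 and 361 counts, against 2.34, 0.528 and 3.02 CPM in WT lungs, from 34, 9 and 46 counts. No KO library was as low as a WT library, but KO replicate 3 held over 3 times the level of the other KO libraries. This gave a log2 difference of 2.54 ± 0.68, short of the threshold (edgeR adjusted p = 0.120). Without KO replicate 3 it was 1.62 (adjusted p = 0.295), and without KO replicate 1 it was 2.89 and passed (adjusted p = 0.0339). With all 6 libraries, DESeq2 called Ido1 at an adjusted p of 0.000814, and limma-voom did not call it (adjusted p = 0.145).

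The other enzymes that open the pathway are encoded by Ido2 and Tdo2. Ido2 had 7, 4 and 8 counts in KO libraries, against 8, 0 and 5 counts in WT libraries, and failed the filter on low counts. Tdo2, the tryptophan dioxygenase best known from liver, averaged 3.76 ± 0.850 CPM in KO and 4.57 ± 1.05 CPM in WT lungs, a log2 difference of −0.28 ± 0.36 (edgeR adjusted p = 0.779).

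Kynu (chromosome 2, 43555329 to 43682715, plus strand) encodes kynureninase, which cleaves kynurenine and its hydroxylated form. Its level was 6.95, 10.7 and 10.2 CPM in KO lungs, against 3.78, 4.82 and 5.84 CPM in WT lungs. The groups did not overlap, but the lowest KO library was close to the highest WT library. With a log2 difference of 0.94 ± 0.29, Kynu was not called (edgeR adjusted p = 0.141), nor was it under any of the 17 other settings tried. Kmo, the hydroxylase just before it, stood at 5.73, 6.75 and 9.33 CPM in KO lungs, against 3.02, 2.99 and 4.79 CPM in WT lungs, also without overlap and without passing (1.01 ± 0.34, adjusted p = 0.166).

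Of 26 other genes of tryptophan transport, breakdown and kynurenine sensing, 21 were tested, 2 rose and 0 fell, with a median log2 difference of 0.34. Over all tested genes, 1.12% were called higher and 0.336% lower. Cyp1a1, a monooxygenase known as a target of the aryl hydrocarbon receptor, rose to 27.8, 29.7 and 19.8 CPM in KO lungs, against 12.4, 10.4 and 10.8 CPM in WT lungs (log2 fold change 1.20 ± 0.20, edgeR adjusted p = 0.0144). Unlike Ido1, it was lowest in KO replicate 3. The receptor gene Ahr itself, named after its value was seen, had a log2 difference of −0.33 ± 0.15 (adjusted p = 0.326). Nampt, which starts the synthesis of NAD from nicotinamide, rose to 112, 145 and 186 CPM in KO lungs, against 88.2, 73.0 and 81.3 CPM in WT lungs (0.87 ± 0.16, adjusted p = 0.0168). The call for Cyp1a1 was lost without KO replicate 2 (adjusted p = 0.0948), WT replicate 1 (0.0509) or WT replicate 2 (0.0939). That for Nampt was lost without KO replicate 2 (0.0945), KO replicate 3 (0.0700), WT replicate 1 (0.0774) or WT replicate 2 (0.112).

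Wars (chromosome 12, 108860030 to 108894174, minus strand) encodes the cytosolic tryptophanyl-tRNA synthetase, which differs from other synthetases in being a classical interferon-induced gene. It was the most abundant member, at 220.1, 346 and 483 CPM in KO lungs, against 182, 162 and 211 CPM in WT lungs. No KO library was as low as any WT library, with KO replicate 1 close to the highest of these. The means were 349.7 ± 132 CPM in KO and 185 ± 24.7 CPM in WT lungs (SD, n = 3 each), and Wars was not called at a log2 difference of 0.92 ± 0.25 (edgeR adjusted p = 0.141). Without KO replicate 1 it was 1.16 and passed (adjusted p = 0.000178), without KO replicate 3 it was 0.61 (adjusted p = 0.195), and leaving out any of the other 4 libraries gave no call.

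The 19 other cytosolic aminoacyl-tRNA synthetase genes gave the comparison for Wars. By edgeR none of them was called, and none was called by DESeq2 or limma-voom either. At an unadjusted p under 0.05, 4 were higher and 0 lower, where 8.29% of all tested genes were higher. The median log2 difference of the 19 was 0.09, with a range from −0.23 to 0.41. The 3 smallest p-values were those of Farsa, for phenylalanine (0.40 ± 0.15, edgeR adjusted p = 0.237), Cars, for cysteine (0.41 ± 0.17, adjusted p = 0.269), and Vars, for valine (0.27 ± 0.12, adjusted p = 0.300). The log2 ratio of Wars to the mean of the 19 was 2.56, 3.09 and 3.51 in KO lungs, against 2.27, 2.17 and 2.49 in WT lungs. The ratio was 0.75 higher in KO lungs, with all KO libraries above all WT libraries (two-sided exact permutation test, p = 0.1, the smallest possible).

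**Figure D3:**
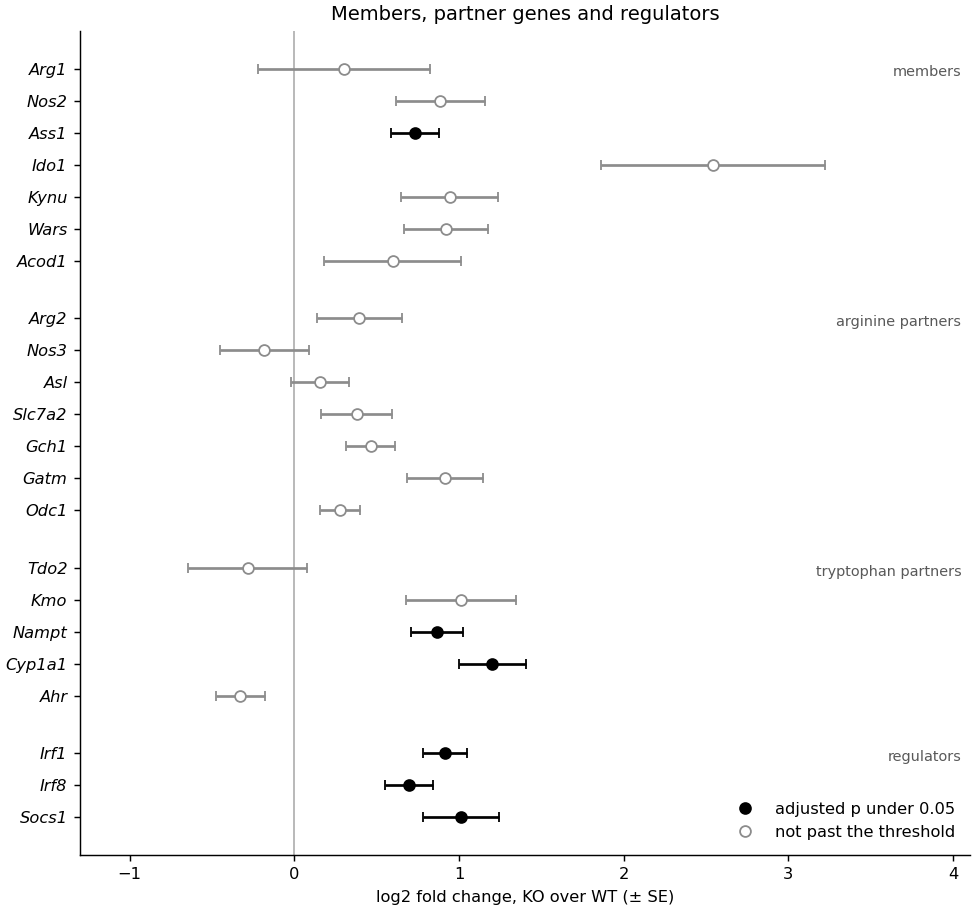
Log2 fold changes of KO over WT lungs (± SE, n = 3 libraries each) for the 7 members, 12 partner genes and the regulators Irf1, Irf8 and Socs1, with filled points past an adjusted p of 0.05 in edgeR's quasi-likelihood test. Ass1 is the only filled member, at 0.73, and of the genes plotted Ido1 has the largest value and the widest error, 2.54 ± 0.68.

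Acod1 (chromosome 14, 103046977 to 103056573, plus strand), formerly Irg1, encodes the enzyme that makes itaconate. It stood at 77.2, 122 and 139.8 CPM in KO lungs, against 36.6, 97.8 and 89.7 CPM in WT lungs. KO replicate 1 lay below WT replicates 2 and 3, and WT replicate 1 lay far below every other library. Acod1 was not called, at a log2 difference of 0.60 ± 0.42 (edgeR adjusted p = 0.588), which was 0.27 without WT replicate 1 and 0.84 without WT replicate 2.

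Of 33 genes of the citrate cycle, itaconate handling and the NRF2 response around Acod1, 31 were tested. By edgeR none was called, while DESeq2 and limma-voom called 0 each. At an unadjusted p under 0.05, 2 were higher and 1 lower, where 8.29% of all tested genes were higher. The median log2 difference of the 31 was 0.14. The smallest p-values were those of Suclg1 and Idh3b, which encode citrate cycle enzyme subunits (0.34 ± 0.13 and 0.26 ± 0.11, edgeR adjusted p = 0.248 and 0.297), and of Ogdh, of the oxoglutarate dehydrogenase complex (−0.24 ± 0.10, adjusted p = 0.283). Slc13a3, a carrier of dicarboxylates that was picked after its values were seen, had 6, 15 and 14 counts in KO libraries and 0 in each WT library. Over the group and by unscaled totals, this is at least 11.6-fold higher in KO lungs than 3 counts over the WT group would give. The counts were too few to enter the test.

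Per kb of exon, Wars was the most abundant member in both groups, followed by Acod1 and Ass1. They averaged 101 ± 38.2, 43.1 ± 12.3 and 21.0 ± 3.12 CPM per kb in KO lungs, against 53.6 ± 7.17, 28.5 ± 12.7 and 12.6 ± 0.5998 CPM per kb in WT lungs (SD, n = 3 each). No neighbours among these 3 overlapped between libraries of a group. Below them came Ido1 at 6.22 ± 5.09, Nos2 at 4.45 ± 1.73, Kynu at 1.51 ± 0.329 and Arg1 at 1.13 ± 0.338 CPM per kb in KO lungs. In WT lungs the order was Nos2 at 2.41 ± 0.206, Ido1 at 1.07 ± 0.705, Arg1 at 0.911 ± 0.355 and Kynu at 0.783 ± 0.168 CPM per kb. Ido1 and Nos2 overlapped in KO lungs, as did Kynu and Arg1, and in WT lungs Ido1, Arg1 and Kynu overlapped in turn. The order depends on the length used, the union of exons over all transcripts of a gene, 6149 bases for Kynu and 2228 for Arg1. In CPM not divided by length, every Kynu library lay above every Arg1 library in both groups.

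**Figure D4:**
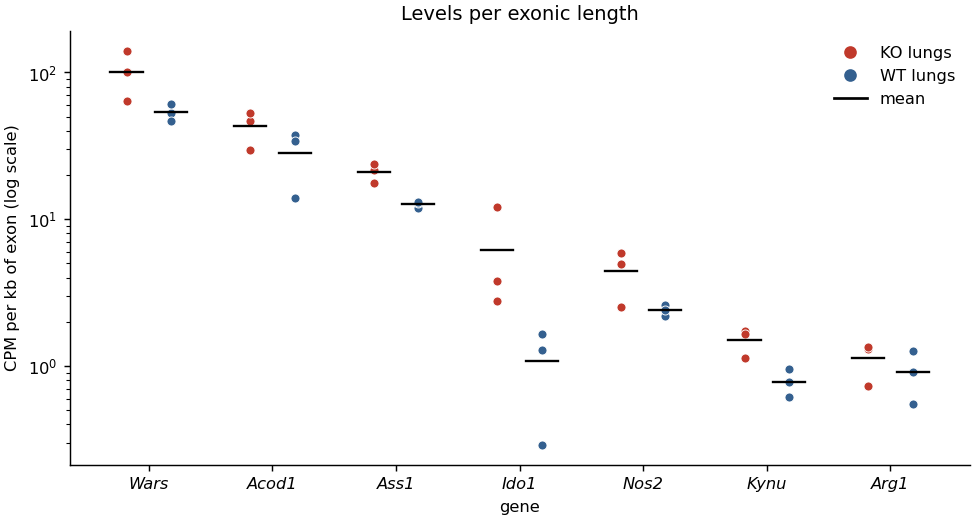
CPM per kb of exon for the 7 members on a log axis, 1 point per library, KO left and WT right, with means as lines. Wars, Acod1 and Ass1 stand above the other 4 genes in both groups, and Ido1 spreads most.

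Most of the members ranked the KO libraries alike. KO replicate 3 was the highest KO library for 6 of the 7 members and KO replicate 1 the lowest for 6, with Kynu and Arg1 as the exceptions in turn. Over the 6 libraries, Pearson's r of log2(CPM + 1) was 0.80 to 0.96 between any 2 of Nos2, Ass1, Ido1, Wars and Kynu. Between Acod1 and these genes it was lower or at the bottom of that range, from 0.49 (Ido1) to 0.82 (Kynu). Between Arg1 and each other member it was 0.21 to 0.61. These values describe 6 libraries that fall into 2 groups, so they hold the group difference itself. The genes most like Ass1 by this measure were Ly6i, P2ry13 and Fbl (r of 0.995 to 0.999), all 3 called higher. Those most like Wars were Lgals1, Prelid1 and Gbp2 (0.997 to 0.999), and those most like Ido1 were Dbnl, Atp6v1g1 and Tmsb4x (0.991 to 0.997). For Nos2 they were Hpx, Lysmd3 and Fbxo3 (0.994 to 0.996), for Kynu Lair1, Adar and Hpse (0.993 to 0.996), for Acod1 Hal, Rasal3 and Nabp1 (0.983 to 0.992) and for Arg1 Hhat, Inafm2 and Gpam (0.965 to 0.985). With 12682 genes compared and 46 to 500 of them above an r of 0.9 for a member, such ranks separate few genes.

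Of 22 regulators known for these enzymes, 4 rose and 0 fell, where 1.12% of all tested genes were called higher and 0.336% lower. Irf1, a transcription factor induced by interferons, rose to 445, 551 and 527 CPM in KO lungs, against 279.7, 218 and 311 CPM in WT lungs (log2 fold change 0.91 ± 0.13, edgeR adjusted p = 0.00682). Irf8, a factor of the same family (0.70 ± 0.15, adjusted p = 0.0347), and Socs1, a brake on cytokine receptor signals (1.01 ± 0.23, adjusted p = 0.0472), also rose. Socs1 narrowly lost its call with limma-voom (adjusted p = 0.0505) and with upper-quartile scaling in edgeR (0.05005). DESeq2 called 4 of the 22 regulators and limma-voom 3, against 585 and 208 of all genes. With 1 library left out in turn, 0 to 6 of the 22 were called, the fewest without KO replicate 2 and the most without KO replicate 1. Over all genes, the same fits called 24 to 578. Of Irf1, Irf8 and Socs1, Irf1 alone was called without KO replicate 3, WT replicate 1 or WT replicate 2, and Irf1 and Irf8 without WT replicate 3. Ifng, the gene of interferon gamma itself, had 12, 19 and 54 counts in KO libraries, against 0, 5 and 8 counts in WT libraries (edgeR adjusted p = 0.220). Il4 and Il13, which induce Arg1, had 25 to 41 and 0 to 27 counts in KO libraries, against 10 to 37 and 1 to 33 counts in WT libraries, and neither passed.

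**Figure D5:**
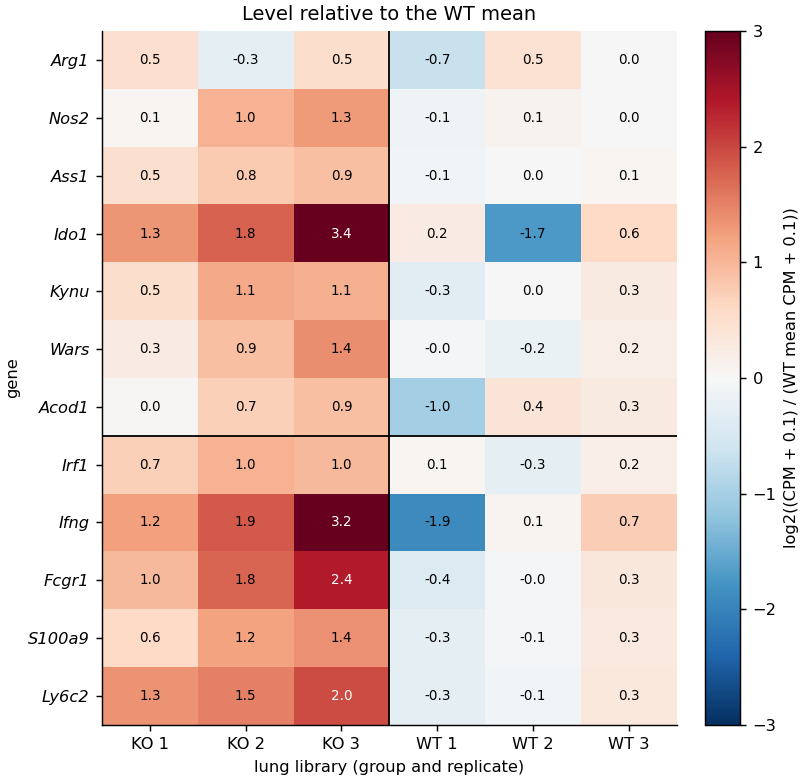
Log2 of each library's CPM over the WT mean (0.1 CPM added to both), for the 7 members above the line and for Irf1, Ifng and 3 myeloid marker genes below it. In most rows KO replicate 1 shows the smallest and KO replicate 3 the largest value of the KO libraries.

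Markers of cells that can express these enzymes were read in the same fit. Over all tested genes, 1.12% were called higher and 0.336% lower, and 10.3% had every KO library above every WT library. Of 13 monocyte and macrophage markers 3 rose and 0 fell (Ly6c2, Fcgr1 and Ccr2), and 7 had every KO library above every WT library. Their summed level was 6002 to 6899 CPM in KO lungs, against 4634 to 5584 CPM in WT lungs. Ly6c2, which marks inflammatory monocytes, had a log2 fold change of 1.64 ± 0.20, and the Fc receptor gene Fcgr1 of 1.82 ± 0.31. Of 11 neutrophil markers, 9 were tested and S100a8 (1.13 ± 0.19) and S100a9 (1.10 ± 0.19) rose, with a summed level of 339 to 518 CPM in KO lungs, against 189 to 308 CPM in WT lungs. Of the 9, 6 had a positive log2 difference, and the lowest was −0.82 for Ngp, a gene of neutrophil granules. Ly6g, the defining neutrophil surface marker, failed the filter on low counts and, like Ngp, is named after its values were seen. It had 4, 14 and 26 counts in KO libraries and 0 in each WT library. With 1 library left out, 1 to 4 of the monocyte and 0 to 2 of the neutrophil markers were called, the fewest of both without KO replicate 2, KO replicate 3, WT replicate 1 or WT replicate 2. By edgeR none of the alveolar macrophage (9 tested), dendritic cell (10) or T and NK cell (9) markers was called. At an unadjusted p under 0.05, 1, 1 and 2 of them were higher and 0 lower, where 8.29% of all tested genes were higher. DESeq2 called 1, 1 and 2 of them, against 585 of all genes. In the order just given, the smallest p-values were those of Marco, Siglech and Cd3g, at log2 differences of 2.07 ± 0.56, 1.15 ± 0.30 and 0.80 ± 0.21. The part of such cell types in the levels of the enzyme genes was not tested.

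Of 8 endothelial markers Vwf fell (−0.60 ± 0.11), and of 8 blood and platelet markers the platelet chemokine gene Ppbp fell (−2.79 ± 0.29). Over all tested genes, 1.12% were called higher and 0.336% lower. At an unadjusted p under 0.05, 4 endothelial and 3 blood and platelet markers were lower and 0 higher. Of all tested genes, 14.6% had such a p in either direction, and 8.29% had it and were higher. In each of these lists, 3 genes had every KO library below every WT library, as did 9.4% of all tested genes. None of the 8 lung identity markers was called by edgeR, with 1 higher and 1 lower at an unadjusted p under 0.05. DESeq2 and limma-voom called 1 lung identity marker each, against 585 and 208 of all genes. The smallest p-value among the lung genes was that of the club cell gene Scgb1a1 (2.06 ± 0.50, adjusted p = 0.158). Of 10 epithelial and tumour cell markers, 9 were tested and Lcn2, which neutrophils and macrophages express as well, rose (1.06 ± 0.19). Their summed level was 983 to 1035 CPM in KO lungs, against 887 to 1007 CPM in WT lungs, so that the lists' levels overlapped. These genes are shared by lung epithelium and 4T1 cells and do not measure tumour load alone.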

How the data were processed

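RNA of 6 whole lungs (3 KO, 3 WT) was sequenced. The deposited values are raw read counts per Ensembl gene. Reads were aligned to mm10 (GRCm38) with STAR 2.5, per the series' design text, and counted with HTSeq 0.6.1, per the submitters' processing notes. Strand setting, counting mode and annotation release are not given in these sources, so reads of antisense partners could not be told apart. No exon of another GENCODE M21 gene overlapped an exon of the 7 members. Symbols, coordinates and exonic lengths (union of exons over all transcripts) came from GENCODE M21 by Ensembl identifier, and 34490 of 35275 rows matched.

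Counts were tested with edgeR 4.0.16 in R 4.3.3 (TMM, filterByExpr with a minimum count of 10, quasi-likelihood F-test, robust=TRUE, group alone), KO minus WT, with Benjamini-Hochberg adjustment over 15191 genes and a threshold of 0.05. SE is the log2 fold change over the square root of F. CPM used TMM-scaled library sizes, except in the bounds for counts of 0. Ratios used counts plus 0.5 per kb and two-sided exact permutation tests. DESeq2 1.42.0 and limma 3.58.1 were alternatives. The procedure was tested on simulated counts. No 2 libraries held identical values, and the libraries differed by 15.4 to 56.0 times the variance of sampling. Since no label says that each library is 1 animal, the p-values rest on the spread among these libraries, which may be technical.

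The members and gene lists were chosen with earlier results of these data known. Named were the 7 members, fixed partner genes, up to 6 called genes or the 3 smallest p-values of a pathway list, up to 3 called genes or the smallest p-value of a marker list, and the 3 genes most like each member (mean log2 CPM of 1 or more, without Gm, Rik and pseudogene symbols). The result of 1 regulator is not reported here.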

Additional observations from a re-analysis of the deposited data

How the results depend on the processing

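All 7 members and all 3 ratios kept the sign of their difference under every alternative run. The thresholds of 0.1 and 0.01 reuse the main fit and cannot change a sign. Nor can the replicate block change a ratio difference. Over all genes, 221 were called, and counts of all, higher and lower genes were 803, 578 and 225 without a filter on low counts, 585, 353 and 232 with DESeq2, 475, 315 and 160 at an adjusted p of 0.1 and 25, 23 and 2 at 0.01. Leaving out 1 library gave 24 to 578 called genes, 22 to 404 higher and 2 to 174 lower. Of the 7 members, 5 were called without the filter, 2 with DESeq2, 0 at 0.01 and 0 to 4 with 1 library left out. Of the 5 pathway lists together 6 genes were called, and 13 without the filter, 1 at 0.01 and 0 to 9 with 1 library left out. The cause was not tested. Other scalings, the stricter filter, limma-voom and robust=FALSE called 1 member. With 1 library left out, the ratios differed by 0.07 to 0.97 (Nos2 to Arg1), 0.52 to 0.99 (Wars to other synthetases) and 0.47 to 0.65 (Ass1 to Asl).

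The labels do not pair the samples. Equal replicate numbers correlated at −0.02 to 0.03 in their deviations from the group means, and 2 of 6 libraries correlated best with their own number. With the replicate number as a block, 405 genes were called (309 higher and 96 lower), with 4 members among them and 8 genes of the pathway lists. The ratio differences were 0.47, 0.75 and 0.57 as before. They could not change, because the mean of the differences within replicate numbers equals the difference of the group means. Here an exact test that flips the sign of the difference within each replicate number gave p-values of 0.75, 0.25 and 0.25. The smallest p that this test can give is 0.25. Depth limits the genes with few counts, among them Arg1, Ido2 and Slc13a3, all with under 50 counts per library.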

Other observations

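Slc3a2, the heavy chain that tryptophan and cystine carriers share, stood apart in 1 library. It had 12236 counts in KO replicate 1 and 4875 to 5243 counts in the other KO libraries, against 4305 to 4623 counts in WT libraries. It was not called, at a log2 difference of 0.72 ± 0.39 (edgeR adjusted p = 0.478). KO replicate 1 is the KO library in which 6 of the 7 enzyme genes were lowest. Slc7a5, the light chain of the tryptophan carrier, had 157, 251 and 334 counts in KO libraries, against 207, 347 and 214 counts in WT libraries, and was lowest in KO replicate 1.

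Nadsyn1, which completes NAD from nicotinic acid or kynurenine pathway products, had every KO library below every WT library, at 5.50 ± 0.628 CPM in KO and 9.11 ± 1.60 CPM in WT lungs (log2 difference −0.73 ± 0.27, edgeR adjusted p = 0.221). Of all tested genes, 9.4% had every KO library below every WT library. Nampt, of the salvage route to NAD, rose in the same lungs. Slc3a2, Slc7a5 and Nadsyn1 were chosen after their values were seen.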
